A study of Homo sapiens with 16 samples.

Results

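HOX genes encode homeodomain transcription factors that lie in 4 clusters, HOXA, HOXB, HOXC and HOXD, and the number of each gene gives its position in the cluster. Genes of low number are switched on early and towards the head of the embryo, and genes of high number late, towards the tail and in the distal limb and genital region. Fibroblasts keep part of this pattern after development, so that the HOX genes expressed in a culture reflect where in the body the skin was taken, and the pattern is held by Polycomb repressors and Trithorax activators of chromatin. BJ cells are fibroblasts from human foreskin.

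The members were all protein-coding genes named HOXA, HOXB, HOXC or HOXD with a position number and with transcripts in the deposited table, and 39 of 19356 protein-coding genes met this rule, 11 in HOXA, 10 in HOXB, 9 in HOXC and 9 in HOXD. They were described as anterior (positions 1 to 4, 12 genes), central (5 to 8, 11 genes) or posterior (9 to 13, 16 genes). Levels are TPM, a measure of transcript abundance scaled by transcript length and by the total of the library, so that genes can be compared, and a gene's value is the sum over its transcripts. In GRCh37 coordinates, the HOXA genes lie on chromosome 7, on the minus strand, with HOXA13 at chr7:27233122-27239710. The HOXD genes lie on chromosome 2 on the plus strand, from HOXD13 (chr2:176957449-176960672) to HOXD1 (chr2:177053396-177055635), the HOXC genes on chromosome 12 on the plus strand and the HOXB genes on chromosome 17 on the minus strand.

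The BJ cell model has 4 isogenic stages, namely primary BJ cells, immortalized BJ hTERT+ cells, transformed BJ hTERT+ SV40+ cells, and metastasizing BJ hTERT+ SV40+ Ras-G12V cells. Each later stage keeps the constructs of the stage before, hTERT being the catalytic subunit of telomerase, SV40 the Large-T oncogene of a virus and Ras-G12V a mutated H-Ras. Every stage was grown for 6 passages at atmospheric oxygen and at 3% oxygen (moderate hypoxia), all with 5% CO2, on duplicate plates in parallel, which gave 8 groups of 2 libraries. Each stage is represented by 1 cell line, so a construct cannot be told apart from the line that carries it. The plates of a group are not separate derivations, and p-values weigh a difference only against the spread between plates, estimated over all 8 groups. TPM keep no read counts, so the depth behind each value is unknown.

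TERT was listed at 0 and 0 TPM in the primary libraries at atmospheric oxygen and at 0.0370 and 0.543 TPM at 3% oxygen, and lay between 31.6 and 193 TPM in the 12 later libraries. HRAS did not separate the metastasizing from the transformed libraries at atmospheric oxygen (94.6 and 78.1 against 120 and 99.0 TPM), and TPM do not tell the mutated copy from the normal one, so HRAS does not check those labels. At 3% oxygen HRAS was at 143 and 772 TPM in metastasizing replicates a and b, and these replicates differed more than 2-fold at 11.0% of expressed genes, against 1.83% to 4.08% in the other groups. All 12 fibroblast markers tested, among them collagens, vimentin, lumican and PDGFRA, reached a group mean of 1 TPM in the primary, immortalized and metastasizing cells, and 11 of 12 did in the transformed cells. Their summed level was 18009 to 25973 TPM in the primary and immortalized libraries and 4761 to 7396 TPM in the transformed and metastasizing libraries. The summed markers of keratinocytes, endothelium and immune cells never exceeded 3.61, 10.4 and 3.73 TPM, with the keratin KRT1 listed at 0 in every group and CD3E in every group.

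Of the 39 HOX genes, 27 (69.2%) reached a group mean of 1 TPM somewhere, against 67.9% of all protein-coding genes, and 8 reached it in all groups. These 8 were HOXA7, HOXA9, HOXA10, HOXA11, HOXC6, HOXC9, HOXC10 and HOXC11. The remaining 12 of the 39, HOXA3, HOXB1, HOXB5, HOXB6, HOXB8, HOXB9, HOXB13, HOXC5, HOXC12, HOXD1, HOXD4 and HOXD12, stayed below 1 TPM in every group mean, and HOXB1 and HOXB8 were listed at 0 in all 16 libraries. By position, 8 of 12 anterior, 7 of 11 central and 12 of 16 posterior genes reached 1 TPM in some group.

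**Figure D1:**
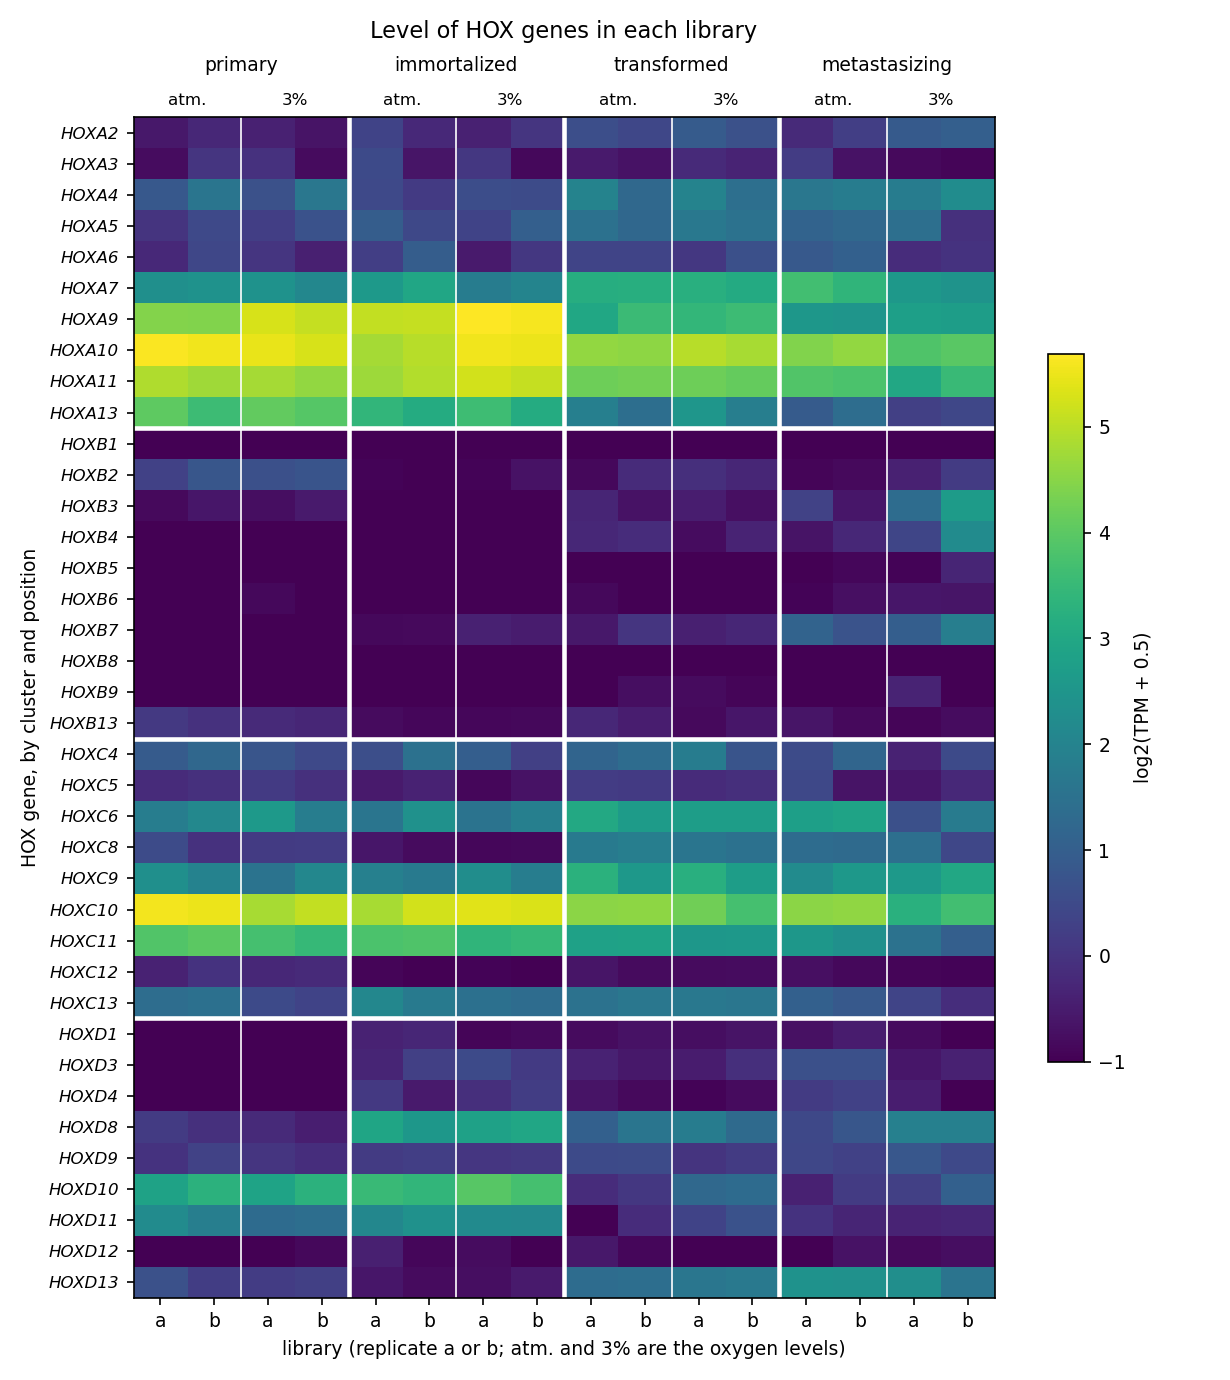
Heat map of log2(TPM + 0.5) for HOX genes (rows, ordered by cluster and position) in the 16 libraries (columns, replicates a and b of each stage and oxygen level, atm. being atmospheric oxygen). The brightest rows are HOXA9 to HOXA11 and HOXC10, the HOXB rows are dark apart from HOXB2 in the primary and HOXB3, HOXB4 and HOXB7 in the metastasizing libraries, and HOXD8 brightens from the primary to the immortalized libraries.

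In the primary cells the posterior genes held most of the HOX RNA. The 39 genes summed to 188 to 212 TPM in the 4 primary libraries, of which the posterior genes made up 90.8% to 93.1%. HOXA10, known from the reproductive tract and blood, was highest in HOXA, at 49.4 and 46.3 TPM at atmospheric oxygen and 43.7 and 38.8 TPM at 3% oxygen. HOXC10, a gene of the lumbar region and hind limb, was highest in HOXC, at 47.2 and 44.9 and at 27.6 and 33.0 TPM. HOXA11, which patterns the forearm and uterus, was at 29.4 and 26.2 against 27.4 and 23.8 TPM.

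HOXA13, which is required for the digits and the genital tubercle, was at 15.8 and 11.5 TPM at atmospheric and 16.6 and 14.7 TPM at 3% oxygen in primary cells. HOXD10 was highest in HOXD, at 6.80 and 9.42 against 6.87 and 9.36 TPM, whereas HOXD13, the partner of HOXA13 in digits and genitalia, was at 1.09 and 0.666 against 0.646 and 0.694 TPM. HOXD1, HOXD3 and HOXD4 were listed at 0 in all 4 primary libraries. The HOXB genes together summed to 1.37 to 1.86 TPM.

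The transformed and metastasizing libraries held less HOX RNA, and a smaller share of it was posterior. The summed level was 184 to 243 TPM in immortalized libraries, 123 to 141 TPM in transformed libraries and 78.9 to 121 TPM in metastasizing libraries. The posterior share was 87.1% to 92.2% in immortalized, 74.4% to 76.1% in transformed and 63.1% to 71.1% in metastasizing libraries. Summed posterior genes were at 161 to 224 TPM in the immortalized and 92.9 to 106 TPM in the transformed libraries, with no overlap, while the central genes lay at 13.4 to 20.1 and at 22.6 to 24.7 TPM. These sums were not tested, and fewer cells of a type and less RNA per cell cannot be told apart in such bulk samples.

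**Figure D2:**
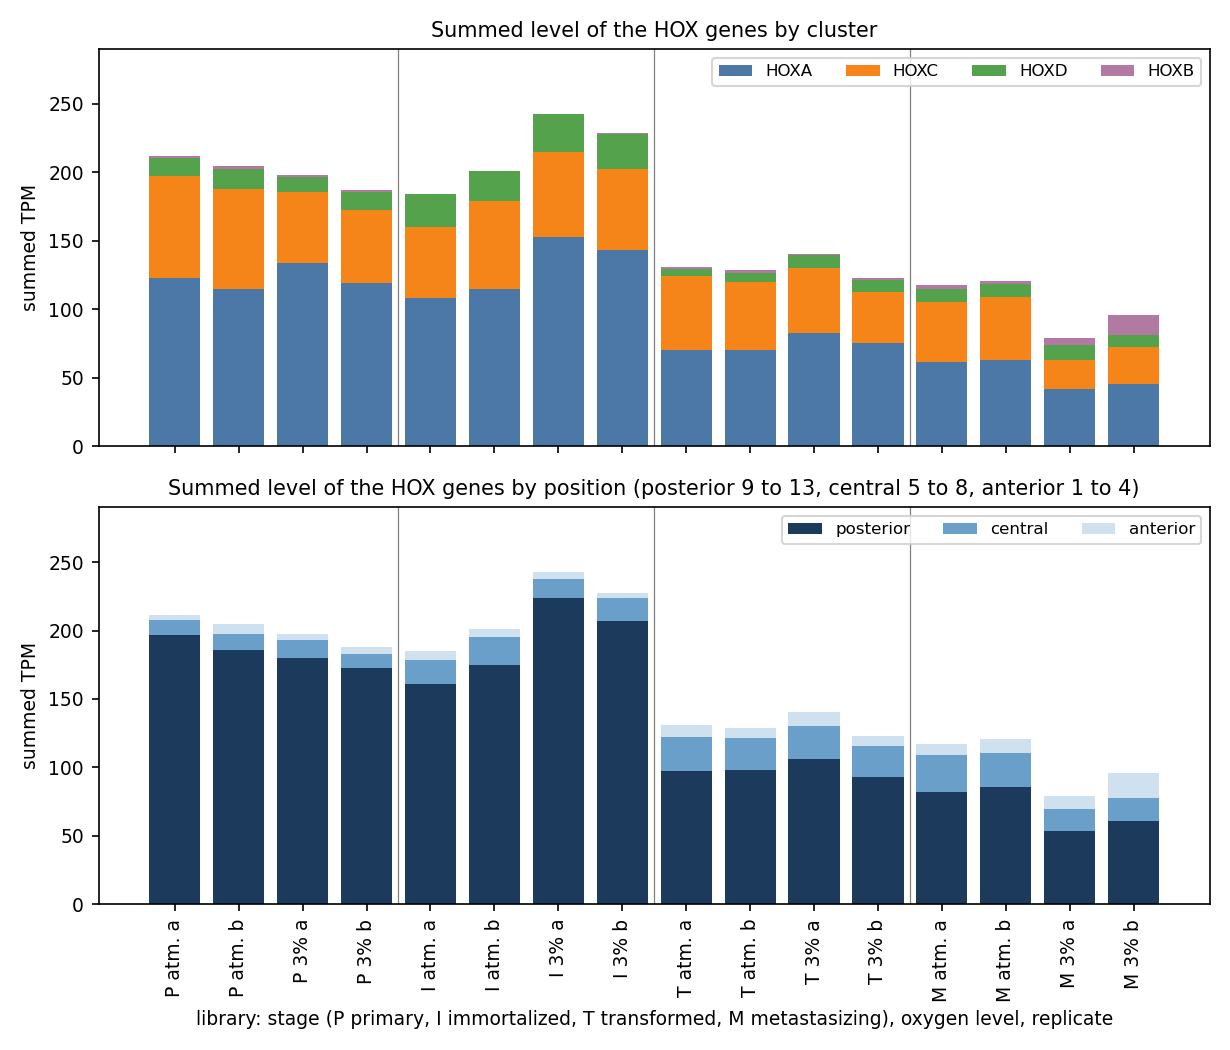
Summed TPM of the 39 HOX genes in each of the 16 libraries, stacked by cluster (upper panel) and by position class (lower panel). The posterior part stands at 161 to 224 TPM in the immortalized libraries and at 53.5 to 106 TPM in the transformed and metastasizing libraries, and the HOXB part is visible in the metastasizing libraries at 3% oxygen, at 5.17 and 14.4 TPM.

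Differences were tested with limma where a compared group reached a mean of 1 TPM. Fold changes are on the log2(TPM + 0.5) scale, which understates the changes of low genes. A gene counted as called when its fold change exceeded 2 (1 on the log2 scale) and its p, adjusted by the Benjamini-Hochberg method over all genes tested, was under 0.01. Members that passed the expression filter only through the group where they are high had to differ, so counts of members are given beside those of all genes and not as support. With 2 libraries a group, the smallest two-sided p that exact permutation allows for a single gene is 0.333.

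Among the members called at the successive steps were HOXD8, HOXD10, HOXD11 and HOXD13, which lie close together in the HOXD cluster, and HOXA9, the HOXA gene with the largest change at the transformation step. Their RefSeq promoter windows, 250 bases before to 50 bases after the start of the transcript, are shown because the HOXD genes differed in opposite directions. The sequences are those of the GRCh38.p14 table and each matched GRCh37 exactly once, at chr2:176957199-176957498 for HOXD13, chr2:176971758-176972057 for HOXD11, chr2:176981256-176981555 for HOXD10 and chr2:176994183-176994482 for HOXD8 on the plus strand, and at chr7:27205107-27205406 for HOXA9 on the minus strand. Each start is that of a listed coding transcript. Coding transcripts held 100% of the TPM of HOXD13 and HOXD8, but 18.1% for HOXD11, 39.9% for HOXD10 and 25.6% for HOXA9. Most of the level of these 3 genes thus came from other transcripts, which can start elsewhere, so their windows do not describe most of the level measured. Capitals mark matches to 5 motifs on either strand. The core promoter element was searched as TATAAA. The proximal promoter element bound by NF-Y was searched as CCAAT. The core of the hypoxia response element was searched as ACGTG. The E-box was searched as CACGTG, which holds the hypoxia core on both strands. The site for HOX with PBX proteins was searched as TGATTNAT.
HOXD13: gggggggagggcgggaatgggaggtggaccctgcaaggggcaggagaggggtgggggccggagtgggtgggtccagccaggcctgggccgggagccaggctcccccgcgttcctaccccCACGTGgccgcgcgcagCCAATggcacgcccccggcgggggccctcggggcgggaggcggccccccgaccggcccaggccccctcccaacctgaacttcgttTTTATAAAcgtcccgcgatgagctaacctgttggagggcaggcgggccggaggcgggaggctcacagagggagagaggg
HOXD11: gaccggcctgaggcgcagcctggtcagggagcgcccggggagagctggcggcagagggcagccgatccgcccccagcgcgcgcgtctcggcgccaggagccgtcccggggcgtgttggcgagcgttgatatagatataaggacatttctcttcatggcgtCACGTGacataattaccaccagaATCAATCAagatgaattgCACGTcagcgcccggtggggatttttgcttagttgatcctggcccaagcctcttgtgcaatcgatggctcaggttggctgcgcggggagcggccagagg
HOXD10: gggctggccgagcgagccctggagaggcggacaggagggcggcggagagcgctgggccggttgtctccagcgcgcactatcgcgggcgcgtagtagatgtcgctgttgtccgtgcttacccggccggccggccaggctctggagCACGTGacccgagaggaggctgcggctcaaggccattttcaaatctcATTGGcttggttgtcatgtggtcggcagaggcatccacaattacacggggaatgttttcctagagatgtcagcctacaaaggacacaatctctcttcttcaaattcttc
HOXD8: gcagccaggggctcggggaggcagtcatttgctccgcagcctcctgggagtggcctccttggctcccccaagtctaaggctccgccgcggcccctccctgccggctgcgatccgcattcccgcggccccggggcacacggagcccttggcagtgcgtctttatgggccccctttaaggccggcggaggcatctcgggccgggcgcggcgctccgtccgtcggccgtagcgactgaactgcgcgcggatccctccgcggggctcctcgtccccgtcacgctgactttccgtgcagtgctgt
HOXA9: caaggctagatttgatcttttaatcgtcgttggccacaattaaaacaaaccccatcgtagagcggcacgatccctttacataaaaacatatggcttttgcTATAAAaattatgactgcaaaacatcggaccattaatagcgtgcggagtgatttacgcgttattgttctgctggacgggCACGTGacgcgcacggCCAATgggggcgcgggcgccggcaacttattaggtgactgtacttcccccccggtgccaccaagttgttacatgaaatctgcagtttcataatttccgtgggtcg

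The HOXD8 window held none of the 5 motifs, and the other 4 windows each held CACGTG, HOXD11 with a further ACGTG. HOXD13 and HOXA9 held TATAAA, HOXD13 on both strands in overlapping matches that begin at -29 and -27 from the start, and HOXD10, HOXD13 and HOXA9 held CCAAT. HOXD11 alone of these windows held TGATTNAT. Windows, 27 in all, were at hand for 20 of the 39 members, and HOXC4 and HOXC5 share the same window. Shares of windows and counts of members are unlike measures, since a member with several windows has more room for a match. Among all 35116 windows, TATAAA was in 11.5%, CCAAT in 34.6%, ACGTG in 21.4%, CACGTG in 7.26% and TGATTNAT in 2.82%, and among the 20 members 4, 17, 15, 9 and 2 had them in at least 1 window. A match describes the letters only, and CACGTG was added to the search after the windows were seen.

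The step from primary to immortalized cells, at which hTERT was introduced, was led by HOXD8, a central gene. HOXD8 was at 0.628 and 0.450 TPM in primary and 7.08 and 5.33 TPM in immortalized cells at atmospheric oxygen, and at 0.363 and 0.240 against 6.58 and 7.23 TPM at 3% oxygen. The immortalized libraries were all far above the primary ones. HOXD8 rose at both oxygen levels (log2 fold change 2.68, SE 0.25, adjusted p = 1.55e-05 at atmospheric oxygen, and log2 fold change 3.21, SE 0.25, adjusted p = 5.14e-06 at 3% oxygen, limma).

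HOXD8 was the only member called at atmospheric oxygen, 1 of 18 tested, where 12.2% of all 12388 genes tested were called (5.98% higher). Without primary replicate a HOXB2 was called too (log2 fold change -1.76, adjusted p = 0.00407), and without primary replicate b HOXD13 (log2 fold change -1.36, adjusted p = 0.00805). At 3% oxygen 2 of 17 were called, HOXD8 and HOXB2, against 9.23% of all 12218 genes tested (4.19% of all genes tested were called higher and 5.04% lower). HOXB2, an anterior gene of the hindbrain, was at 1.04 and 1.17 TPM in primary and 0.0257 and 0.131 TPM in immortalized cells, and fell (log2 fold change -1.47, SE 0.28, adjusted p = 0.00269). Its call was lost when any 1 of the 4 libraries of these groups was left out (log2 fold changes -1.61 to -1.34, adjusted p from 0.0130 to 0.0289).

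Near HOXD8, the anterior HOXD1, HOXD3 and HOXD4, listed at 0 in every primary library, were at 0.0347 to 0.919 TPM in the immortalized libraries, below the level tested at this step. HOXD10 was at 11.0 and 10.0 against 15 and 12.7 TPM in immortalized cells at the 2 oxygen levels, with log2 fold changes of 0.37 (adjusted p = 0.338) and 0.75 (adjusted p = 0.0730), and was not called. HOXA10 and HOXA9, whose loci overlap, differed by less than 2-fold at atmospheric oxygen, HOXA10 by -0.71 (adjusted p = 0.000679) and HOXA9 by 0.67 (adjusted p = 0.00833) on the log2 scale. Among the members tested, the median log2 fold change was 0.11 at atmospheric and 0.22 at 3% oxygen, beside -0.09 and -0.06 over all genes tested. Libraries of the groups did not overlap for 12 of 18 and 12 of 17 members tested, and for 72.3% and 72.3% of all genes.

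The step from immortalized to transformed cells, at which SV40 Large-T was introduced, held most of the HOX calls. At atmospheric oxygen 8 of 20 members tested were called, 3 higher and 5 lower, and 24.3% of all 12387 genes tested were called (13.2% of all genes tested were called higher and 11.2% lower). At 3% oxygen 10 of 20 were called, 3 higher and 7 lower, and 16.3% of all 12396 genes tested were called (8.96% of all genes tested were called higher and 7.38% lower). Of the posterior genes tested, 2 were called higher and 4 lower of 11 at atmospheric oxygen, and 1 higher and 6 lower of 11 at 3% oxygen. Called at both oxygen levels were HOXA9, HOXA13, HOXC8, HOXD8, HOXD10, HOXD11 and HOXD13.

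In the HOXD cluster the posterior genes moved in opposite directions. HOXD10, expressed in the limb and lumbar spinal cord, was at 11.0 and 10.0 TPM in immortalized and 0.396 and 0.563 TPM in transformed cells at atmospheric oxygen, and at 15 and 12.7 against 1.91 and 2.04 TPM at 3% oxygen. It fell at both (log2 fold change -3.50, SE 0.29, adjusted p = 2.38e-06, and log2 fold change -2.53, SE 0.29, adjusted p = 4.74e-05). HOXD11, which with HOXA11 patterns the forearm, was at 3.79 and 4.77 against 0 and 0.408 TPM at atmospheric oxygen, and at 4.09 and 3.97 against 0.767 and 1.12 TPM at 3% oxygen. All transformed libraries lay below all immortalized ones for both genes, and HOXD11 fell too (log2 fold change -2.82, SE 0.28, adjusted p = 8.33e-06, and log2 fold change -1.66, SE 0.28, adjusted p = 0.000662).

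HOXD13, next in the cluster beyond HOXD12, was at 0.164 and 0.0732 TPM in immortalized and 2.09 and 2.15 TPM in transformed cells at atmospheric oxygen. At 3% oxygen it was at 0.0930 and 0.200 against 2.61 and 2.75 TPM. HOXD13 rose at both levels (log2 fold change 2.09, SE 0.25, adjusted p = 3.78e-05, and log2 fold change 2.30, SE 0.25, adjusted p = 3.44e-05), and HOXD12 between them stayed at or below 0.246 TPM in every library. HOXD8 was at 1.58 and 2.51 TPM in transformed cells at atmospheric and 2.98 and 2.00 TPM at 3% oxygen, below the immortalized and above the primary values given above. It fell (log2 fold change -1.41, SE 0.25, adjusted p = 0.000616, and log2 fold change -1.33, SE 0.25, adjusted p = 0.00142), and at 3% oxygen the call was lost without immortalized replicate b or transformed replicate b (log2 fold changes -1.26 to -1.09, adjusted p from 0.0146 to 0.0162).

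In the HOXA cluster, the fall of HOXA9 was the largest. HOXA9, a gene of blood progenitors and leukemias and of the posterior trunk, was at 33.4 and 34.0 TPM in immortalized and 7.41 and 11.3 TPM in transformed cells at atmospheric oxygen, and at 51.2 and 47.9 against 10.3 and 11.5 TPM at 3% oxygen. It fell at both (log2 fold change -1.82, SE 0.16, adjusted p = 4.62e-06, and log2 fold change -2.14, SE 0.16, adjusted p = 2.63e-06). HOXA13 was at 10.1 and 8.15 against 3.21 and 2.15 TPM at atmospheric oxygen, and at 11.7 and 8.25 against 5.27 and 3.16 TPM at 3% oxygen, with no overlap at either level. HOXA13 fell (log2 fold change -1.61, SE 0.29, adjusted p = 0.000625, and log2 fold change -1.17, SE 0.29, adjusted p = 0.00656), in opposition to HOXD13. At 3% oxygen its call was lost without any 1 of the primary or immortalized libraries at 3% oxygen or without transformed replicate b (log2 fold changes -1.41 to -0.84, adjusted p from 0.0101 to 0.0657).

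HOXA11 was at 37.3 and 34.0 TPM in immortalized and 18.0 and 16.8 TPM in transformed cells at 3% oxygen and fell (log2 fold change -1.01, SE 0.16, adjusted p = 0.000464). Without immortalized replicate a or transformed replicate b its fold was under 2 (log2 fold changes -0.97 to -0.95, adjusted p from 0.00511 to 0.00670). At atmospheric oxygen its difference was -0.58 (adjusted p = 0.010) on the log2 scale, and was not called. HOXA7, a central gene, was at 3.03 and 3.56 against 8.81 and 8.02 TPM at 3% oxygen and rose there (log2 fold change 1.23, SE 0.18, adjusted p = 0.000277), while at atmospheric oxygen the values were 5.58 and 7.28 against 8.52 and 8.61 TPM. HOXA10, the member of highest mean over the 16 libraries, was at 27 and 31.1 against 24 and 23.2 TPM at atmospheric and 46.4 and 44.7 against 30.9 and 27.9 TPM at 3% oxygen, differences of -0.29 (adjusted p = 0.0495) and -0.62 (adjusted p = 0.00127) on the log2 scale that stayed under 2-fold.

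In the HOXC cluster, HOXC8, a gene of the thoracic region, was at 0.157 and 0.0701 TPM in immortalized and 2.88 and 3.11 TPM in transformed cells at atmospheric oxygen, and at 0.0395 and 0.0545 against 2.54 and 2.32 TPM at 3% oxygen. All transformed libraries were above 2 TPM and all immortalized ones below 0.2 TPM. The primary libraries lay between them, at 0.949 and 0.476 TPM at atmospheric and 0.617 and 0.650 TPM at 3% oxygen. HOXC8 rose (log2 fold change 2.51, SE 0.30, adjusted p = 3.54e-05, and log2 fold change 2.42, SE 0.30, adjusted p = 8.46e-05). HOXC10 was at 41.3 and 39.3 TPM in immortalized and 18.5 and 12.6 TPM in transformed cells at 3% oxygen and fell there (log2 fold change -1.37, SE 0.20, adjusted p = 0.000264), although the call was lost when only coding transcripts were summed.

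At atmospheric oxygen HOXC10 was at 27.8 and 37.1 against 22.6 and 23.0 TPM, a difference of -0.48 (adjusted p = 0.0577) that was not called. HOXC9 was at 3.26 and 2.81 against 9.24 and 5.48 TPM at atmospheric oxygen and was called higher (log2 fold change 1.11, SE 0.30, adjusted p = 0.00859). This call was lost when any 1 of 9 libraries was left out, namely those of immortalized cells at both oxygen levels, those of primary and metastasizing cells at atmospheric oxygen, and transformed replicate a at atmospheric oxygen (log2 fold changes 0.76 to 1.20, adjusted p from 0.0106 to 0.0933). It was also lost after median-ratio rescaling. Coding transcripts held 37.2% of the HOXC9 TPM over all libraries. Their means were 1.69 TPM in immortalized and 2.63 TPM in transformed cells at atmospheric oxygen, under 2-fold apart. HOXC11 was at 13.5 and 14.0 against 6.57 and 6.73 TPM at atmospheric oxygen and at 9.81 and 10.7 against 5.33 and 5.45 TPM at 3% oxygen, with differences of -0.99 (adjusted p = 0.000598) and -0.87 (adjusted p = 0.00218) on the log2 scale, under 2-fold.

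**Figure D3:**
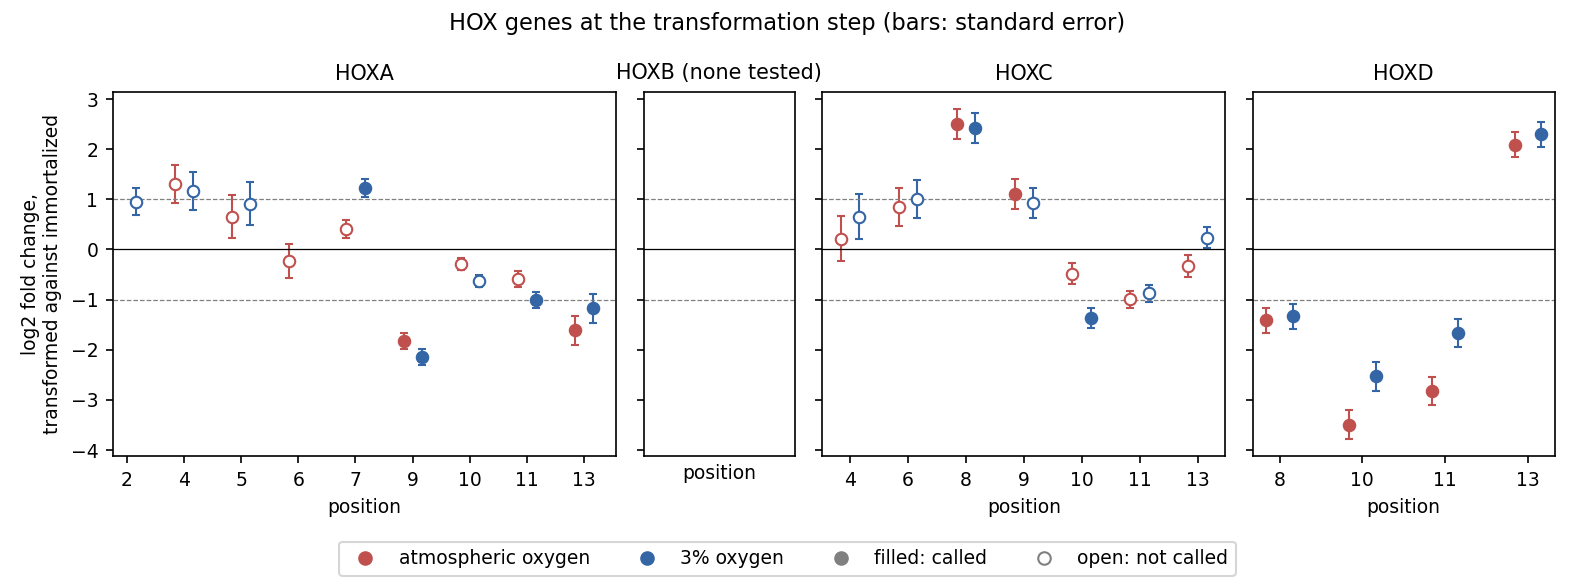
Log2 fold change of transformed against immortalized cells, on the scale of log2(TPM + 0.5), for HOX genes tested, by cluster and position, at atmospheric (red) and 3% oxygen (blue). Filled points are called, bars are standard errors and dashed lines mark 2-fold. HOXD10 and HOXD11 lie at or below -1.66 and HOXD13 at 2.09 and 2.30, and no HOXB gene reached the level tested.

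The anterior genes had no call at this step. HOXA4 was at 0.897 and 0.593 against 3.47 and 1.88 TPM at atmospheric oxygen and at 1.01 and 0.935 against 3.51 and 2.24 TPM at 3% oxygen, and its differences of 1.31 (adjusted p = 0.0128) and 1.17 (adjusted p = 0.0284) did not pass. Without primary replicate a or b at 3% oxygen, which enter only through the shared spread, HOXA4 was called higher at atmospheric oxygen (log2 fold change 1.31, adjusted p = 0.00720, and log2 fold change 1.31, adjusted p = 0.00728). Among the members tested, the median log2 fold change was -0.30 at atmospheric and 0.30 at 3% oxygen, beside 0.22 and 0.11 over all genes tested. For the posterior genes tested it was -0.58 and -1.01, and for the central genes 0.53 and 1.0. Libraries did not overlap for 18 of 20 and 19 of 20 members tested, and for 82.7% and 76.1% of all genes.

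The median of all genes, 0.22 at this step at atmospheric oxygen, was 0.00 after median-ratio rescaling, and the calls over all genes turned from 1632 higher and 1384 lower to 1089 higher and 1742 lower. The HOX calls then were 2 higher and 6 lower, against 3 and 5, with HOXC11 called lower in place of HOXC9 higher. Of 12 fibroblast markers, 8 were called lower and 0 higher at the same step at each oxygen level, with a median log2 fold change of -2.28 at atmospheric and -2.31 at 3% oxygen. PDGFRA was at 233 and 199 TPM in immortalized and 0.299 and 0.660 TPM in transformed cells at atmospheric oxygen. The part of this change in the HOX differences was not tested.

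The fall of HOXA9 was shared by its coding transcripts, which held 25.6% of its TPM over all libraries. They summed to 7.76 and 10.4 TPM in immortalized and 1.82 and 0.257 TPM in transformed cells at atmospheric oxygen, and to 11.2 and 12.4 TPM and 2.39 and 2.02 TPM at 3% oxygen. The rest came from 4 transcripts without a defined coding sequence that begin upstream of the coding ones, and 1 of these begins inside the HOXA10 locus. HOXD10 and HOXD11 overlap too, and 81.9% of the HOXD11 TPM came from 1 transcript without a defined coding sequence. The coding transcript of HOXD11 was at 0.982 and 0.367 TPM in immortalized and 0 and 0 TPM in transformed cells at atmospheric oxygen. At 3% oxygen it was at 0.302 and 0.677 against 0.164 and 0.179 TPM. This is below the level tested, so HOXD11 was not tested at this step with coding transcripts only. The coding transcript of HOXD10 summed to 4.47 and 3.86 TPM in immortalized and 0.193 and 0 TPM in transformed cells at atmospheric oxygen. Of the 39 members, 22 overlap another member in the annotation, in each case on the same strand. Strand therefore could not divide reads between overlapping members, whether or not kallisto, the program behind these values, used it.

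HOXA10 has 2 coding transcripts with separate starts. The one that begins nearer to HOXA9 made up 36.9% to 45.5% of the gene's TPM over the 8 groups, and the one that begins farther upstream made up 16.5% to 32.6%. The share of the upstream transcript was 32.5% in primary cells at atmospheric oxygen and 16.5% in metastasizing cells at 3% oxygen. These shares are estimates from the authors' quantification and were not tested.

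The levels of HOXA13 stand for 1 transcript without a defined coding sequence, since its coding transcript of the present annotation is not in the table, and 1 or more coding transcripts of HOXA3, HOXA4, HOXA9 and HOXD3 in that annotation are likewise not in the table. The sums of these genes can be partial.

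**Figure D4:**
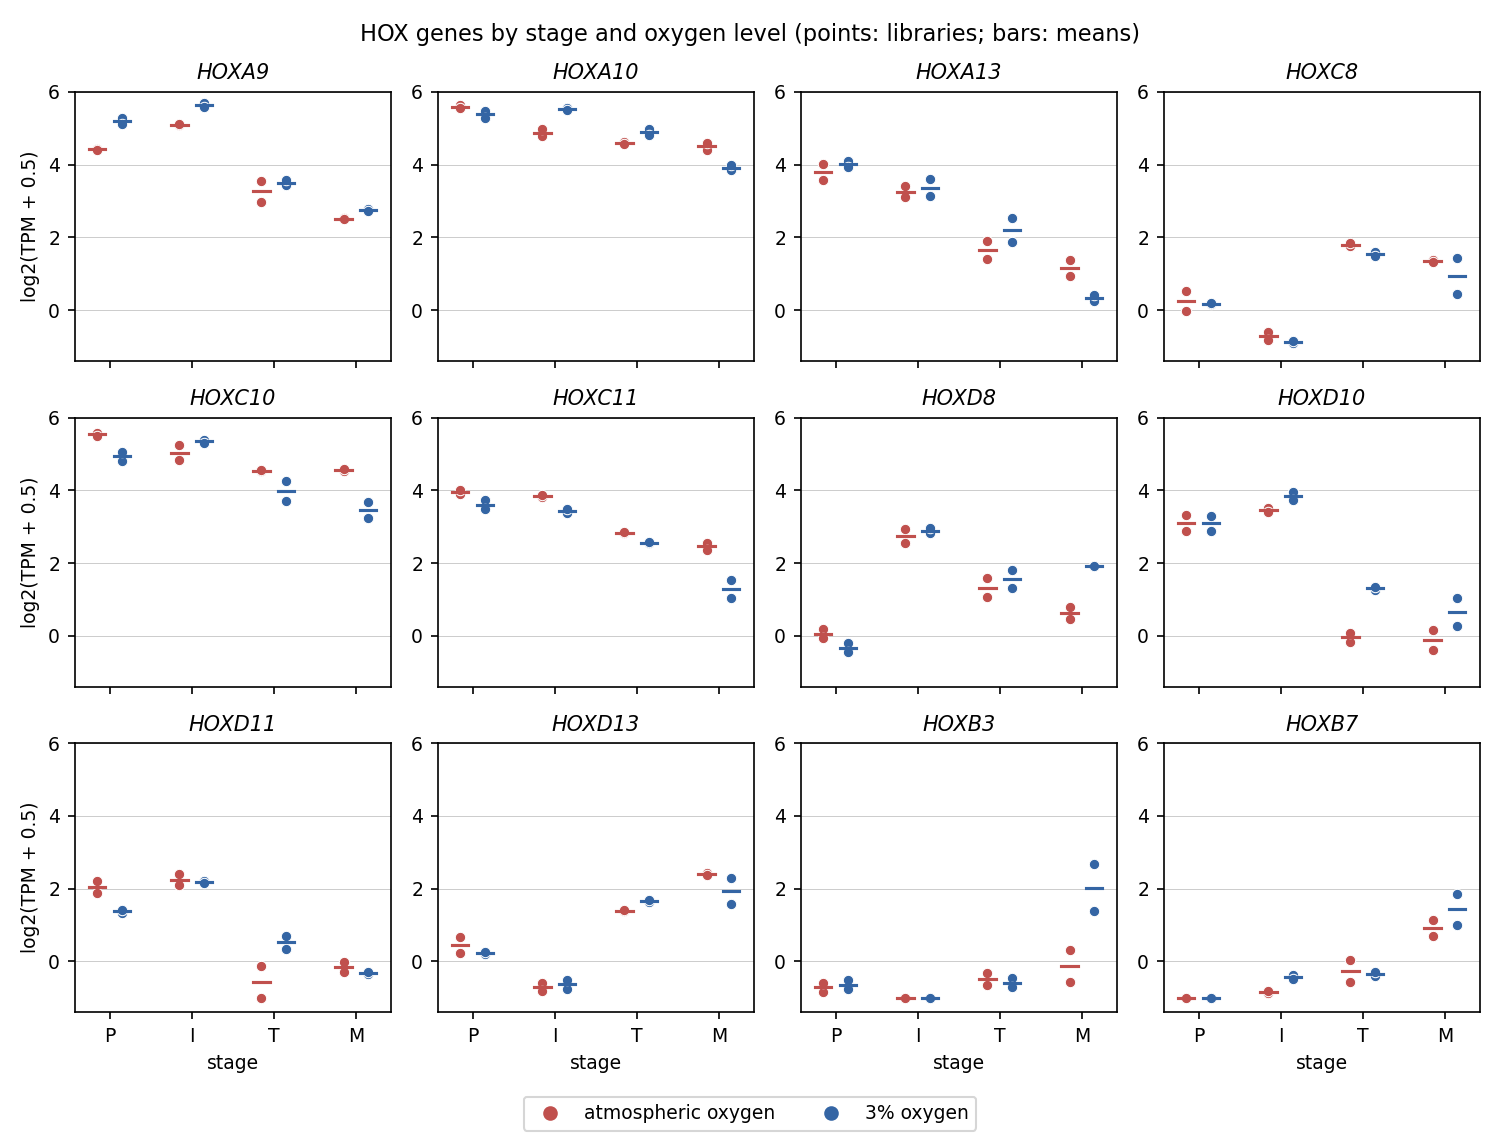
Level of 12 HOX genes by stage (P primary, I immortalized, T transformed, M metastasizing) at atmospheric (red) and 3% oxygen (blue), as log2(TPM + 0.5), where a point is a library and a short bar the mean of 2. HOXA9, HOXA13, HOXD10 and HOXD11 lie lower in T and M than in P and I, HOXC8 and HOXD13 lie higher in T and M than in I, and HOXB3 is highest in M at 3% oxygen.

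The step from transformed to metastasizing cells, at which Ras-G12V was introduced, gave no HOX call at atmospheric oxygen. Here 0 of 20 members tested were called by limma, and 4.12% of all 12203 genes tested were called. Libraries did not overlap for 13 of the 20, and for 68.5% of all genes. HOXD13 was at 2.09 and 2.15 TPM in transformed and 4.85 and 4.71 TPM in metastasizing cells, which differed by 1.01 (adjusted p = 0.0170) on the log2 scale and did not pass. HOXB7 was at 0.180 and 0.522 against 1.69 and 1.13 TPM, with 1.18 (adjusted p = 0.0188), and HOXA9 at 7.41 and 11.3 against 5.31 and 5.14 TPM, with -0.76 (adjusted p = 0.00903). HOXB7, HOXD3 and HOXD13 passed without metastasizing replicate a or b at 3% oxygen. These libraries are not in this comparison and enter only through the shared spread. HOXD3 also passed without either immortalized library at atmospheric oxygen. HOXA9 reached -1.05 on the log2 scale without transformed replicate a at atmospheric oxygen. The share of all genes called in these fits is not given here, so they are not read as a result about the members.

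At 3% oxygen 5 of 23 members tested were called, 2 higher and 3 lower, and 5.92% of all 12288 genes tested were called (1.99% of all genes tested were called higher and 3.93% lower). Both genes called higher belong to the HOXB cluster, whose genes summed to 0.111 to 2.76 TPM in the libraries outside metastasizing cells at 3% oxygen. The 3 HOXB genes tested passed the expression filter only through the metastasizing group. They had to be higher there, so their shared direction is not support. HOXB3, an anterior gene, was at 0.227 and 0.108 TPM in transformed and 2.09 and 5.93 TPM in metastasizing cells (log2 fold change 2.62, SE 0.40, adjusted p = 0.000969). HOXB7, a central gene, was at 0.256 and 0.319 against 1.5 and 3.14 TPM (log2 fold change 1.78, SE 0.30, adjusted p = 0.00172). In metastasizing cells at atmospheric oxygen HOXB7 was at 1.69 and 1.13 TPM. Without transformed replicate b the call of HOXB3 was lost (log2 fold change 2.49, adjusted p = 0.010, above 0.01 before rounding), and without either transformed replicate that of HOXB7 (log2 fold changes 1.72 to 1.83, adjusted p from 0.0106 to 0.0112).

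In metastasizing cells at 3% oxygen HOXB2, HOXB3, HOXB4, HOXB5, HOXB7 and HOXB13 were higher in replicate b, and HOXB6 and HOXB9 in replicate a. HOXB4, known for the expansion of blood stem cells, was at 0.822 and 4.22 TPM in replicates a and b, HOXB5 at 0.0251 and 0.312 TPM and HOXB6 at 0.160 and 0.149 TPM. HOXB4 was at 0.0833 and 0.291 TPM in transformed cells, which differed by 1.88 (adjusted p = 0.0106) on the log2 scale and did not pass, although it did with replicate a left out (log2 fold change 2.80, adjusted p = 9.49e-05). It also passed with a pseudocount of 0.1 TPM, median-ratio rescaling, quantile normalization, a replicate block or coding transcripts only, with adjusted p from 0.00654 to 0.00995. The HOXB genes summed to 5.17 TPM in replicate a and 14.4 TPM in replicate b, while HRAS was at 143 and 772 TPM, and in each of the other 14 libraries they summed to 0.111 to 2.76 TPM. The part of the difference between these replicates in the HOXB result was not tested. Of the HOXB3 level in this group, 44.2% came from a retained-intron transcript that overlaps the far end of HOXB4.

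The genes called lower were posterior. HOXA13 was at 5.27 and 3.16 TPM in transformed and 0.695 and 0.832 TPM in metastasizing cells at 3% oxygen (log2 fold change -1.87, SE 0.29, adjusted p = 0.00102). HOXC11 was at 5.33 and 5.45 against 2.37 and 1.54 TPM (log2 fold change -1.28, SE 0.17, adjusted p = 0.000538). HOXC13, a regulator of hair and nail keratins, was at 2.72 and 2.58 against 0.783 and 0.415 TPM (log2 fold change -1.54, SE 0.21, adjusted p = 0.000496).

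All metastasizing libraries lay below all transformed ones for these 3 genes. HOXA10 was at 30.9 and 27.9 against 13.9 and 15.3 TPM and differed by -0.99 (adjusted p = 0.000232) on the log2 scale, just under 2-fold. Without metastasizing replicate a at 3% oxygen the log2 fold changes of HOXA5, HOXB4 and HOXC8 were -1.69, 2.80 and -1.12. Without replicate b those of HOXA10, HOXA11 and HOXC6 were -1.06, -1.13 and -2.09. These fits leave 1 library in the metastasizing group, and the share of all genes called in them is not given here. With only the compared groups fitted, which leaves 4 libraries to estimate the spread, none of the 5 calls passed. The median log2 fold change of the members tested was -0.62, beside -0.07 over all genes, and libraries did not overlap for 19 of 23 members tested and 54.3% of all genes.

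For 3% against atmospheric oxygen, no HOX gene was called in primary or immortalized cells. In primary cells 0 of 15 members tested were called by limma, and 5.30% of all 12184 genes tested were called. HOXC13 was at 2.12 and 2.25 TPM at atmospheric and 0.918 and 0.780 TPM at 3% oxygen, -0.99 (adjusted p = 0.00546) on the log2 scale, and HOXA9 at 21.2 and 20.8 against 38.3 and 34.2 TPM, 0.77 (adjusted p = 0.00633). Both passed the adjusted p and not the fold, and libraries did not overlap for 7 of the 15 members, against 67.7% of all genes. After median-ratio rescaling, or with a pseudocount of 0.1 TPM, HOXC13 was called lower.

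In immortalized cells 0 of 17 members tested were called by limma, and 4.91% of all 12049 genes tested were called. HOXA7 was at 5.58 and 7.28 TPM at atmospheric and 3.03 and 3.56 TPM at 3% oxygen, -0.86 (adjusted p = 0.00569) on the log2 scale. HOXA10 was at 27 and 31.1 against 46.4 and 44.7 TPM, 0.64 (adjusted p = 0.00249). Both stayed under 2-fold, HOXA10 with higher and HOXA7 with lower values at 3% oxygen, and their groups did not overlap. Libraries did not overlap for 10 of the 17 members, and for 72.8% of all genes.

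In transformed cells 1 of 19 members tested was called, HOXD10, and 7.48% of all 12242 genes tested were called (4.90% higher). Libraries did not overlap for 9 of the 19, and for 72.5% of all genes. HOXD10 was at 0.396 and 0.563 TPM at atmospheric and 1.91 and 2.04 TPM at 3% oxygen, and rose (log2 fold change 1.34, SE 0.29, adjusted p = 0.00479), to a level still below the immortalized libraries. The call was lost when any 1 of the 4 transformed libraries was left out (log2 fold changes 1.22 to 1.46, adjusted p from 0.0210 to 0.0405), and when only the transformed groups were fitted. HOXD11 was at 0 and 0.408 against 0.767 and 1.12 TPM and did not reach the level tested in this comparison.

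In metastasizing cells 6 of 25 members tested were called, 2 higher and 4 lower, and 7.66% of all 12288 genes tested were called (3.06% of all genes tested were called higher and 4.60% lower). HOXB3 was at 0.746 and 0.168 TPM at atmospheric and 2.09 and 5.93 TPM at 3% oxygen and rose (log2 fold change 2.16, SE 0.40, adjusted p = 0.00270). HOXB3 passed the expression filter only through the group at 3% oxygen, so its direction was fixed. HOXD8 was at 0.875 and 1.24 against 3.28 and 3.26 TPM and rose (log2 fold change 1.29, SE 0.25, adjusted p = 0.00353). The call of HOXB3 was lost without replicate b at atmospheric oxygen (log2 fold change 1.71, adjusted p = 0.0277), and that of HOXD8 without replicate a at 3% or either replicate at atmospheric oxygen (log2 fold changes 1.12 to 1.46, adjusted p from 0.0120 to 0.0350).

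The 4 genes called lower came from 3 clusters. HOXA7 was at 12.2 and 9.81 TPM at atmospheric and 5.39 and 4.93 TPM at 3% oxygen (log2 fold change -1.02, SE 0.18, adjusted p = 0.00222). HOXC10 was at 22.7 and 23.6 against 9.02 and 12.3 TPM (log2 fold change -1.10, SE 0.20, adjusted p = 0.00244). HOXC11 was at 5.33 and 4.66 against 2.37 and 1.54 TPM (log2 fold change -1.18, SE 0.17, adjusted p = 0.000739). HOXC6, a central gene of the same cluster, was at 6.30 and 6.82 against 1.05 and 2.95 TPM. It differed by -1.61 (adjusted p = 0.0103) on the log2 scale and did not pass. HOXC6 passed with a pseudocount of 1 TPM (adjusted p = 0.00957) and with coding transcripts only (adjusted p = 0.00967). HOXB4 was at 0.135 and 0.337 against 0.822 and 4.22 TPM. Its difference of 1.78 (adjusted p = 0.0133) did not pass, but it did after median-ratio rescaling (adjusted p = 0.00990) and quantile normalization (adjusted p = 0.00843).

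HOXD3 was at 1.04 and 1.05 TPM at atmospheric and 0.168 and 0.260 TPM at 3% oxygen in metastasizing cells (log2 fold change -1.12, SE 0.24, adjusted p = 0.00677), and 90.5% of its TPM came from a transcript without a defined coding sequence. Its call was lost when any 1 of 9 libraries was left out, namely the 4 primary libraries, both transformed libraries at atmospheric oxygen, both metastasizing libraries at atmospheric oxygen and metastasizing replicate a at 3% oxygen (log2 fold changes -1.12 to -1.02, adjusted p from 0.0104 to 0.0379). HOXA7 and HOXC11 lost theirs without replicate b at 3% or replicate a at atmospheric oxygen, HOXA7 with log2 fold changes -0.96 to -0.87, adjusted p from 0.00642 to 0.0258 and HOXC11 with log2 fold changes -1.09 to -0.93, adjusted p from 0.00140 to 0.0101. HOXC10 lost it without replicate a at 3% or either replicate at atmospheric oxygen (log2 fold changes -1.13 to -0.89, adjusted p from 0.0151 to 0.0200).

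The count in metastasizing cells fell to 1 without replicate a and to 2 without replicate b at atmospheric oxygen. The split also moved with the scaling, since median-ratio rescaling gave 3 members called higher and 1 lower, and quantile normalization 3 higher and 0 lower, and HOXA7 and HOXC10 were then not called. Over all genes the split was 376 higher and 565 lower, and 466 and 441 after median-ratio rescaling. The fibroblast markers had 5 of 12 called lower and 0 higher in this comparison, and LUM was at 57.9 and 64.1 TPM at atmospheric and 4.00 and 17.1 TPM at 3% oxygen. Their part in the HOX differences was not tested. Libraries did not overlap for 21 of the 25 members, and for 58.7% of all genes.

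**Figure D5:**
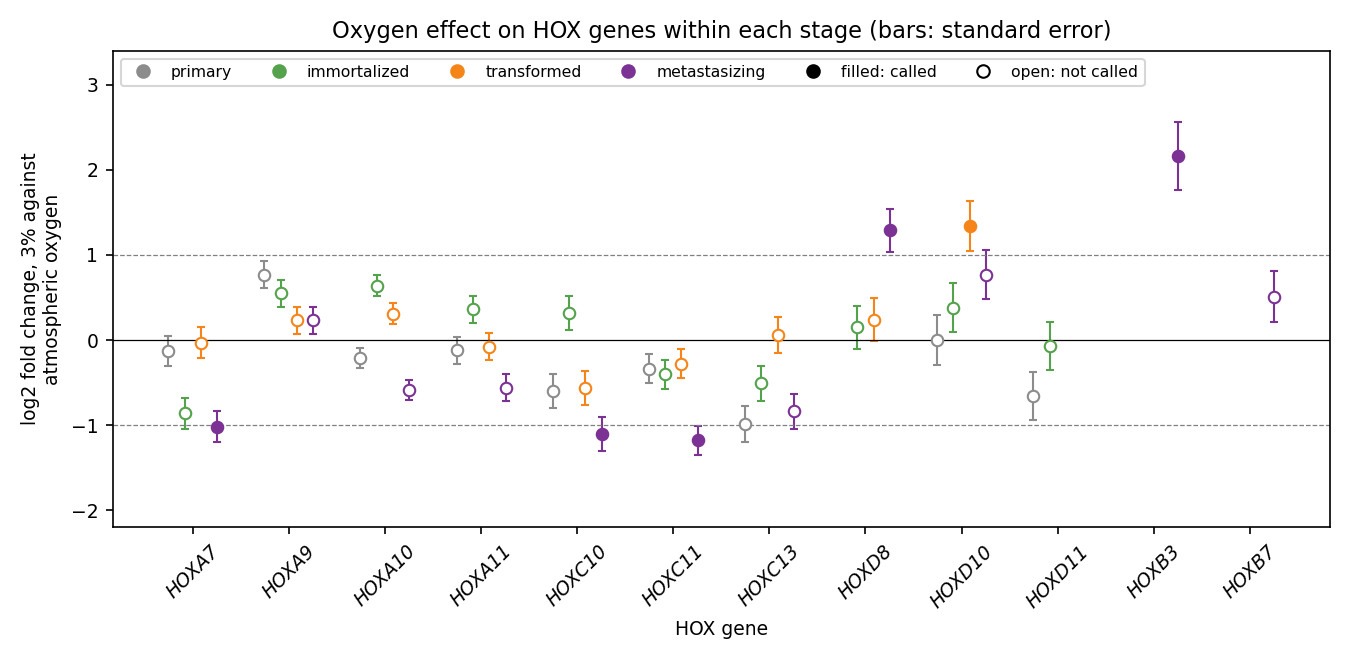
Log2 fold change of 3% against atmospheric oxygen, on the scale of log2(TPM + 0.5), for 12 HOX genes in primary (grey), immortalized (green), transformed (orange) and metastasizing cells (purple), where tested. Filled points are called, bars are standard errors and dashed lines mark 2-fold. HOXD10 at 1.34 in transformed cells and HOXB3 at 2.16 and HOXD8 at 1.29 in metastasizing cells lie above the upper line, and the called HOXA7, HOXC10 and HOXC11 lie below the lower one.

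Whether the oxygen effect differed between neighbouring stages was tested as an interaction. None of 19, 21 and 25 members tested was called for immortalized minus primary, transformed minus immortalized and metastasizing minus transformed cells by limma. Of all genes tested, 1.86%, 12% and 8.46% were called. The call of HOXD10 in transformed cells and those of the metastasizing cells are therefore not shown to be particular to these stages. HOXB3 had an interaction of 2.26 (adjusted p = 0.0139) on the log2 scale for metastasizing minus transformed cells, and HOXD8 one of 1.05 (adjusted p = 0.0494). Without metastasizing replicate a at 3% oxygen that interaction was 2.92 for HOXB3, 3.05 for HOXB4 and -1.15 for HOXC11. Without replicate b it was -2.06 for HOXC6. These fits leave 1 library in that group, and the share of all genes called in them is not given here. HOXB3 was called in it after median-ratio rescaling (log2 fold change 2.31, adjusted p = 0.00983) and after quantile normalization (log2 fold change 2.41, adjusted p = 0.00769), HOXD3 without a trend and HOXA10 with coding transcripts only.

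The PBX, MEIS and PKNOX proteins bind DNA together with HOX proteins, and 8 of 9 of their genes were tested in each comparison. At the transformation step 1 was called higher at atmospheric oxygen, where the count called lower is not reported here, and 0 higher and 1 lower at 3% oxygen. Of all genes, 13.2% were called higher at atmospheric oxygen, and 8.96% higher and 7.38% lower at 3% oxygen. The median log2 fold change was 0.39 and -0.00, beside 0.22 and 0.11 over all genes. MEIS1 was at 37.1 and 32.8 TPM in immortalized and 13.4 and 13.6 TPM in transformed cells at atmospheric oxygen and at 59.3 and 62.2 against 27.4 and 21.1 TPM at 3% oxygen, and fell at both (log2 fold change -1.34, SE 0.14, adjusted p = 1.31e-05, and log2 fold change -1.32, SE 0.14, adjusted p = 2.92e-05). MEIS2, named after its values were seen, was the gene called higher (log2 fold change 1.19, SE 0.22, adjusted p = 0.000894), and without immortalized replicate b its fold was under 2 (log2 fold change 0.83, adjusted p = 0.00862).

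PBX3 was at 41.3 and 46.2 TPM in primary and 18.5 and 14.4 TPM in immortalized cells at atmospheric oxygen and at 54 and 63.3 against 24.2 and 26.3 TPM at 3% oxygen, and fell at both (log2 fold change -1.39, SE 0.19, adjusted p = 0.000209, and log2 fold change -1.20, SE 0.19, adjusted p = 0.000790). At 3% oxygen the call was lost without primary replicate b or immortalized replicate a (log2 fold changes -1.14 to -1.08, adjusted p from 0.0102 to 0.0102). In the oxygen comparisons of the 4 stages 0 cofactors were called higher, and 1 was called lower, MEIS3 in metastasizing cells (log2 fold change -1.03, SE 0.15, adjusted p = 0.000730), whose fold was under 2 without replicate a at 3% oxygen (log2 fold change -0.88, adjusted p = 0.00408). MEIS1 was called higher at the step to immortalized cells at 3% oxygen (log2 fold change 1.57, SE 0.14, adjusted p = 1.43e-05).

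The Polycomb genes keep silent HOX genes repressed. At the transformation step, where 24.3% of all genes were called at atmospheric and 16.3% at 3% oxygen, 2 of 15 tested were called higher and 0 lower at atmospheric oxygen, and 1, SUZ12, higher and 0 lower at 3% oxygen (log2 fold change 1.01, SE 0.10, adjusted p = 1.66e-05), which stayed under 2-fold without immortalized replicate b or transformed replicate a (log2 fold changes 0.94 to 0.97, adjusted p from 0.000261 to 0.000452). The median log2 fold change was 0.30 and 0.35, beside 0.22 and 0.11 over all genes. EZH2, the histone methyltransferase, was at 17.1 and 16.2 TPM in immortalized and 37.2 and 40.8 TPM in transformed cells at atmospheric oxygen (log2 fold change 1.20, SE 0.14, adjusted p = 2.54e-05), and EED, its partner, at 18.7 and 16.8 against 40.6 and 36.7 TPM (log2 fold change 1.10, SE 0.11, adjusted p = 7.14e-06). At 3% oxygen EZH2 was at 31.2 and 29.6 against 34.1 and 37.9 TPM. None was called in the oxygen comparisons of the 4 stages or at the step to immortalized cells, and 1, CBX7, was called lower in metastasizing against transformed cells at 3% oxygen (log2 fold change -1.02, SE 0.20, adjusted p = 0.00373), a call lost without transformed replicate a or metastasizing replicate b (log2 fold changes -1.0 to -0.76, adjusted p from 0.00962 to 0.0259). The oxygen effect itself differed between transformed and immortalized cells for EED (log2 fold change -1.11, SE 0.15, adjusted p = 0.000379) and CBX7 (log2 fold change 1.58, SE 0.28, adjusted p = 0.00177), and between metastasizing and transformed cells for CBX7 (log2 fold change -1.39, SE 0.28, adjusted p = 0.00467), the last lost in 4 of the 16 fits that each left out 1 library (adjusted p from 0.0135 to 0.0209).

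Of the 10 Trithorax genes and H3K27 demethylases, which counter Polycomb, only KDM6B, a demethylase, was called in any comparison of 2 groups. KDM6B was at 6.44 and 6.81 TPM in immortalized and 3.13 and 2.34 TPM in transformed cells at atmospheric oxygen and fell (log2 fold change -1.15, SE 0.27, adjusted p = 0.00421), and was at 2.64 and 2.36 against 6.39 and 6.20 TPM at 3% oxygen and rose (log2 fold change 1.18, SE 0.27, adjusted p = 0.00497). No other gene of this list was called at the transformation step, where 0 were called higher and 1 lower at atmospheric oxygen. At 3% oxygen 1 was called higher and 0 lower. Of all genes tested, 24.3% were called at atmospheric and 16.3% at 3% oxygen. The median of the list was 0.66 and 0.31, beside 0.22 and 0.11 over all genes, and of the other sign than the call at atmospheric oxygen. KDM6B was also the 1 gene of this list called in an oxygen comparison, lower at 3% oxygen in immortalized cells (log2 fold change -1.25, SE 0.27, adjusted p = 0.00706). These calls of KDM6B in comparisons of 2 groups were lost without any 1 of the 4 libraries compared. The call in the oxygen comparison was also lost without any of 6 other libraries. The oxygen effect on KDM6B differed between transformed and immortalized cells (interaction of 2.33 on the log2 scale, SE 0.39, adjusted p = 0.00126, limma).

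Retinoic acid switches on HOX genes in sequence, and a list of its pathway genes with the CDX factors was compared. At the step to immortalized cells 3 of 12 tested were called higher and 3 lower at atmospheric oxygen, and 2 of 10 higher and 2 lower at 3% oxygen, beside 12.2% and 9.23% of all genes called. The medians were -0.51 and 0.04 on the log2 scale, beside -0.09 and -0.06 over all genes. ALDH1A1, which makes retinoic acid, was at 468 and 392 TPM in primary cells at atmospheric oxygen and 50.8 and 57.8 TPM at 3% oxygen (log2 fold change -2.97, SE 0.25, adjusted p = 3.68e-05), and was listed at 0 in all 4 immortalized libraries. ALDH1A2, an enzyme of the same reaction, was at 0.930 and 0.716 TPM in primary and 43.6 and 33.1 TPM in immortalized cells at atmospheric oxygen and rose (log2 fold change 4.87, SE 0.41, adjusted p = 8.11e-06).

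CRABP2, which carries retinoic acid to its nuclear receptors, was at 317 and 291 TPM in primary, 1164 and 1242 TPM in immortalized and 15 and 15.1 TPM in transformed cells at atmospheric oxygen. It rose and then fell (log2 fold change 1.98, SE 0.31, adjusted p = 0.000565, and log2 fold change -6.27, SE 0.31, adjusted p = 7.86e-08). At the transformation step 0 of 7 genes of this list tested were called higher and 3 lower at atmospheric oxygen, and 0 of 8 higher and 2 lower at 3% oxygen, beside 24.3% and 16.3% of all genes called. They were CRABP2 and ALDH1A2 at both levels and CDX1, a transcription factor, at atmospheric oxygen. The medians were -0.50 and -0.05 on the log2 scale, beside 0.22 and 0.11 over all genes.

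Genes that flank the clusters were compared as well. At the transformation step, of 13 tested, 1 was called higher and 2 lower at atmospheric oxygen, and 0 higher and 1 lower at 3% oxygen, beside 24.3% and 16.3% of all genes called. Their medians were 0.12 and -0.21 on the log2 scale, beside 0.22 and 0.11 over all genes. The gene called higher was SNX11 (log2 fold change 1.02, SE 0.14, adjusted p = 0.000106), whose fold was under 2 without transformed replicate b (log2 fold change 0.96, adjusted p = 0.00194). NFE2, a factor of platelet formation near HOXC, was at 4.59 and 5.52 TPM in immortalized and 0.532 and 0.681 TPM in transformed cells at atmospheric oxygen and fell (log2 fold change -2.32, SE 0.32, adjusted p = 9.50e-05). CALCOCO1 was at 30.8 and 31.6 TPM in transformed cells at atmospheric and 81.0 and 77.8 TPM at 3% oxygen (log2 fold change 1.33, SE 0.13, adjusted p = 6.53e-05), and CBX5, a heterochromatin protein, at 25.7 and 29.9 against 70.5 and 65.4 TPM in immortalized cells (log2 fold change 1.28, SE 0.19, adjusted p = 0.00102). The call of CBX5 was lost without replicate a at either oxygen level (log2 fold changes 1.17 to 1.23, adjusted p from 0.0120 to 0.0130).

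Other transcription factors that mark where fibroblasts come from were compared at the transformation step, where all genes also had their most calls. Of 14 tested at atmospheric oxygen 3 were called higher and 6 lower, and of 13 at 3% oxygen 3 higher and 4 lower, beside 24.3% and 16.3% of all genes called. The median log2 fold change was 0.64 at atmospheric and -0.57 at 3% oxygen, beside 0.22 and 0.11 over all genes, and was of the other sign than most of the calls at atmospheric oxygen. TWIST1 and SIM2 were called higher at both levels, and FOXF1, PRRX1, PRRX2 and TBX5 lower at both. At atmospheric oxygen the call of TWIST1 was lost in 12 of the 16 fits that each left out 1 library (log2 fold changes 0.85 to 1.27, adjusted p from 0.0106 to 0.0795), that of SIM2 in 3 of the 15 that tested it and that of PRRX2 in 1. At 3% oxygen the calls of FOXF1 and TBX5 were lost in 4 each, that of PRRX1 in 3 and that of PRRX2 in 2. PRRX1, a factor of limb and craniofacial mesenchyme, was at 223 and 183 TPM in immortalized and 19.2 and 19.3 TPM in transformed cells at atmospheric oxygen (log2 fold change -3.36, SE 0.53, adjusted p = 0.000295). FOXF1, a factor of gut and lung mesenchyme, was at 26.0 and 34.4 against 4.51 and 4.94 TPM (log2 fold change -2.54, SE 0.47, adjusted p = 0.000789). LHX9, a factor of gonad and limb, was at 5.63 and 75.3 TPM in primary replicates a and b at 3% oxygen, 1 of them far above the other, and at 1.30 and 1.13 TPM in immortalized cells (log2 fold change -3.65, SE 0.87, adjusted p = 0.00927). The call of LHX9 was lost in 15 of the 16 fits that each left out 1 library (log2 fold changes -3.73 to -1.84, adjusted p from 0.0108 to 0.0523).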

How the data were processed

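The deposited values are TPM per transcript, which the authors made with kallisto 0.42.1 and GRCh37 from stranded poly-A libraries sequenced on a HiSeq instrument, and they ran edgeR on counts estimated by kallisto. Since no counts can be had from TPM, edgeR was not used here. The study states default parameters for kallisto, and this default does not use strand. The annotation release is not given in the sources used here.

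Of 180253 transcripts listed, 151453 were matched by identifier to GENCODE 44 lifted to GRCh37 (88.2% to 90.1% of a library's TPM) and summed to 19356 protein-coding genes. Of 110 annotated HOX transcripts, 102 are in the table. HOX noncoding genes were not analysed here.

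One limma 3.58.1 model (R 4.3.3) with 1 coefficient per group was fitted to log2(TPM + 0.5) of all 16 libraries, with an intensity trend and Benjamini-Hochberg adjustment over protein-coding genes of at least 1 TPM in a compared group. There were 13 contrasts (oxygen within stage, steps at each oxygen level, interactions). The procedure was tested on simulated data. Tables and figures used Python 3.11.15 (pandas 2.3.3, scipy 1.17.1, matplotlib 3.10.9).

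Named genes were all called members, the highest member per cluster, and up to 3 called genes per other list with the largest change. MEIS1 is among these, and members given below the call threshold and single genes named to complete a count were chosen after their values were seen. A few genes are not reported here individually. The members, lists and motifs were chosen with earlier results of these data known. Alternatives were pseudocounts of 1 and 0.1 TPM, no filter or 5 TPM, median-ratio rescaling, quantile normalization, only the compared groups, a replicate block, no trend, an adjusted p under 0.05, all genes, coding transcripts only, and leaving out each library. A crossed block was added after the data were seen. Promoter sequences are from RefSeq.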

Additional observations from a re-analysis of the deposited data

Results flagged for a closer look

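HOXA10 stood out because its oxygen effect differed between 2 neighbouring stages in the test of that difference, which passed the adjusted p although not the 2-fold rule. HOXA10 was at 24 and 23.2 TPM at atmospheric and 30.9 and 27.9 TPM at 3% oxygen in transformed cells, 0.31 (adjusted p = 0.0566) on the log2 scale. In metastasizing cells it was at 20.8 and 23.7 against 13.9 and 15.3 TPM, -0.59 (adjusted p = 0.00367). The values at 3% oxygen were thus higher than at atmospheric oxygen in the transformed libraries and lower in the metastasizing ones, with no overlap in either stage, and the interaction was -0.90 (SE 0.16, adjusted p = 0.00276, limma). With coding transcripts only it was also past 2-fold (log2 fold change -1.10, adjusted p = 0.00203).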

How the results depend on the processing

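Of 33 HOX changes called, 19 were called in every fit with 1 library left out and 13 under every other alternative, and none changed direction. A single library then stood for its group and was assumed to vary like the others. The shares of all genes called with a library left out are not given here, so these counts are not read as a result about the members. With a library left out, the counts were 0 to 1 for oxygen in transformed cells and 1 to 6 in metastasizing cells. They were 1 to 2 for immortalized against primary cells at either oxygen level, 7 to 9 and 7 to 10 for transformed against immortalized cells at atmospheric and 3% oxygen, and 0 to 3 and 4 to 8 for metastasizing against transformed cells. The last interaction gave 0 to 3, and the other 4 counts, at 0, did not move. With only the compared groups fitted, 0 HOX genes were called for oxygen in transformed and in metastasizing cells and for metastasizing against transformed cells at 3% oxygen, and 1 for immortalized against primary cells at 3% oxygen, where fewer libraries estimate the spread. A filter of at least 5 TPM tested fewer genes and gave 0 and 2 for oxygen in transformed and metastasizing cells, 5 for transformed against immortalized cells at atmospheric oxygen, and 1 each at 3% oxygen for the first and the last step. Without a filter the counts were 3 and 4 for immortalized against primary cells at atmospheric and 3% oxygen, and 1 for metastasizing against transformed cells at atmospheric oxygen. Coding transcripts alone gave 0 for oxygen in transformed cells, 5 for transformed against immortalized cells at atmospheric oxygen and 1 in the last interaction. Quantile normalization gave 3 for oxygen in metastasizing cells and 1 in that interaction, and median-ratio rescaling gave 1 in primary cells, 2 for immortalized against primary cells at atmospheric oxygen and 1 in that interaction. A pseudocount of 0.1 TPM gave 1 in primary cells, and one of 1 TPM gave 1 for immortalized against primary cells at 3% oxygen. Tests without a trend gave 1 for metastasizing against transformed cells at atmospheric oxygen and 1 in the last interaction. An adjusted p under 0.05 gave 3, 1 and 5 for that step and the last 2 interactions. It also added HOXA6, HOXB4 and HOXC6 for oxygen in metastasizing cells, and HOXA4 at the transformation step at both oxygen levels. For the last step at 3% oxygen it added HOXB4 and HOXC6. Median-ratio rescaling and quantile normalization each gave 3 for the first and 6 for the last step at 3% oxygen. Not every count that moved is listed here. Where a cause is not named, it was not tested. The replicate letters were not taken as pairs, since they name parallel plates and nothing links them across oxygen levels. Deviations of same-letter libraries correlated between -0.155 and 0.226 across genes, which does not settle whether they are pairs. With a replicate block the counts over the 10 comparisons of 2 groups were 0, 0, 1 and 5 for oxygen from the primary to the metastasizing stage, 1, 7 and 0 for the steps at atmospheric oxygen, and 2, 10 and 6 at 3% oxygen. With the letters crossed, 0 HOX genes were called for oxygen in primary cells and 7 for transformed against immortalized cells at atmospheric oxygen.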
